A study of Arabidopsis thaliana with 4 samples.

Results

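The genes described here are 8 members of the HD-Zip II family of Arabidopsis thaliana, out of 27432 nuclear protein-coding genes. The rule lists them by TAIR locus code and uses no measured value, although earlier results of these data were known when the family was picked: ATHB2 (AT4G16780), HB4 (AT2G44910), HAT1 (AT4G17460), HAT2 (AT5G47370), HAT3 (AT3G60390), HAT9 (AT2G22800), HAT14 (AT5G06710) and HAT22 (AT4G37790). For each gene, every peak was taken that overlapped the gene, extended by 1000 bp at both ends, by at least 1 bp. The measurement was ChIP-seq, the sequencing of DNA recovered with a tagged protein, for FHY1. The study asked which genes FHY1 associates with in far-red light. All samples were seedlings, 4 days old and grown in darkness, that carried 35S:GFP-FHY1 in the fhy1-1 mutant and received 3 h of far-red light. The fusion is thus driven by a constitutive viral promoter in the whole seedling, in a mutant of FHY1 itself. Per the labels, 3 separate biological replicates went through ChIP, while 1 further sample is input DNA that is not analysed here. The antibody is anti-GFP in the sample labels and anti-FHY1 in the design text. There was 1 condition, so the values below describe where peaks lay and how far the replicates differed, and no test between light treatments or genotypes could be made.

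FHY1 binds phyA, the photoreceptor for far-red light, and carries it from the cytoplasm to the nucleus. HD-Zip proteins are plant transcription factors that join a homeodomain, which binds DNA, to a leucine zipper, which pairs the subunits. Class II members carry a repressor motif and act mainly as negative regulators of transcription, and several of them repress their own genes and one another. ATHB2, HB4, HAT1, HAT2 and HAT3 are known to be induced when the ratio of red to far-red light falls, as under a canopy, and they promote elongation in shade or shape leaves and embryos. HAT9, HAT14 and HAT22 are not known for that response.

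Replicates 1, 2 and 3 held 8423, 28170 and 19150 peaks, so a gene without a peak in replicate 1 was absent from the shortest list. The authors' fold enrichment per peak, a ratio over a background that is not stated, was at least 2.95 in each list. Its median was 4.06, 3.92 and 4.16 in replicates 1, 2 and 3. The depth of the libraries is unknown, and peaks absent from a list may have been under its threshold. Midpoints and neighbours below were placed with a gene table that has no strand, so start and end of a gene are called its lower and its higher end by coordinate.

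The 8 genes had peaks about as often as other genes in replicate 1 and in all replicates together, and each had a peak in replicate 2. In replicate 1, 3 of the 8 genes had a peak, HAT1, HAT2 and HAT3, which is 37.5%, against 40.1% of all protein-coding genes. In replicate 2 it was 8 of 8, against 79.0% of all protein-coding genes. In replicate 3 it was 6 of 8 (75.0%), without HAT9 and HAT14, against 67.7%. Peaks in all 3 replicates were found for HAT1, HAT2 and HAT3, again 37.5%, against 34.1%. At least 2 replicates held a peak for these and for ATHB2, HB4 and HAT22, which is 6 of 8, against 66.2%. Among the 9110 coding genes with a span of 1586 to 2626 bp, the range of the 8 genes, 36.6% had peaks in all 3 replicates. Without replicate 1, 6 of the 8 genes had peaks in both other replicates, against 61.0% of all coding genes. With each list held to its 8423 strongest peaks, only HAT2 of the 8 had one in all 3, against 17.9%. These shares describe the 8 genes, and none was tested.

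Within the family, the 5 genes known for induction by shade all had peaks in at least 2 replicates, where all coding genes were at 66.2%, and 3 of the 5 had them in all 3, where all coding genes were at 34.1%. Of HAT9, HAT14 and HAT22, only HAT22 had a peak in more than 1 replicate, against the same 66.2% of all coding genes. None of the 3 had one in replicate 1, where all coding genes were at 40.1%. This split compares 5 genes with 3 and was not tested, since genes are not replicates.

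**Figure D1:**
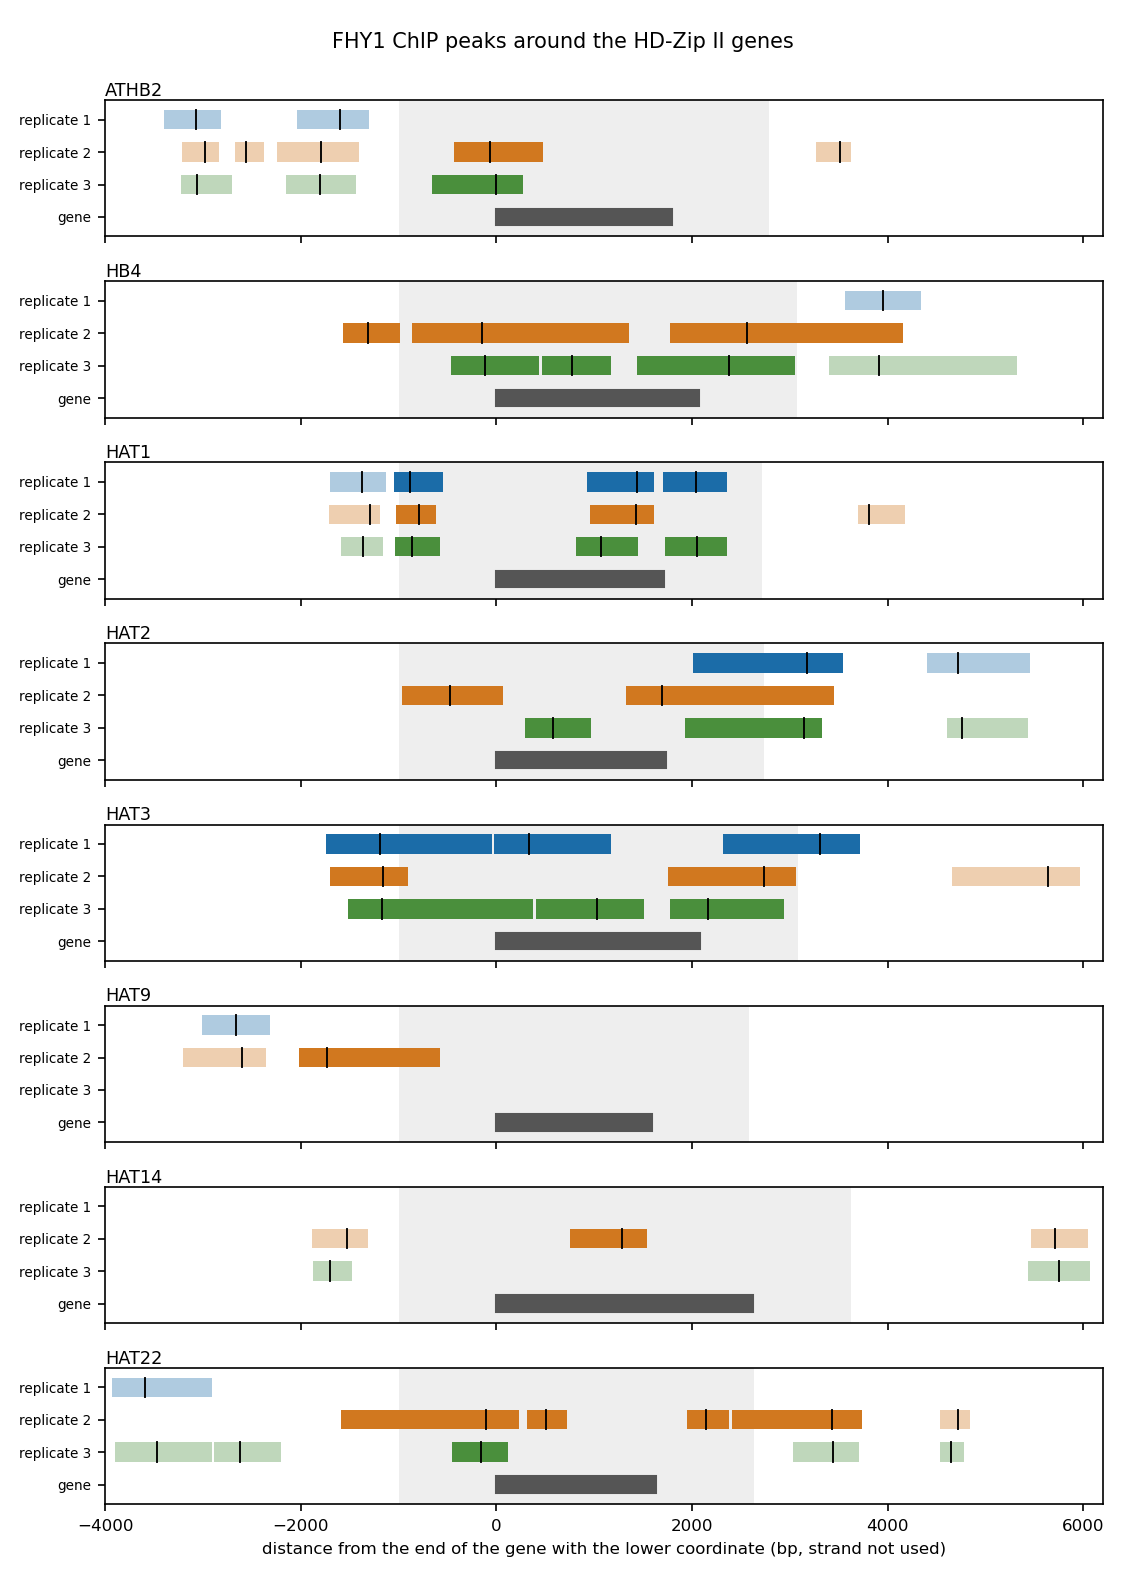
Peaks of replicates 1 to 3 (coloured bars, with the summit as a black line) around the 8 HD-Zip II genes (dark bars), as distance in bp from the lower end of each gene. Grey shading is the gene with 1000 bp at both ends, and pale bars are peaks outside it, drawn up to 3000 bp from the gene. HAT1, HAT2 and HAT3 have bright bars in each replicate, and ATHB2 and HB4 have only pale bars in replicate 1.

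The 36 peaks in the windows of the 8 genes were mostly of moderate rank. Their folds ran from 2.98 to 6.33, with a median of 4.42. By the authors' score, whose layout is that of a scaled −log10 p-value, they lay between the 3.99th and the 94.1st percentile of their own lists, with a median at 57.0. The deposited false discovery rate was 0.48% to 1.28%, and 30 of the 36 peaks had at most 1%. Summits, the points of highest signal within a peak, lay outside the gene in 26 of 36 cases. For 31 of 36 peaks the gene in question was also the coding gene nearest to the peak's midpoint. The other 5 belonged to neighbours by this measure, and they are named below.

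ATHB2, the best known shade-induced member, which promotes hypocotyl elongation, had a peak at its lower end in replicates 2 and 3 and none in replicate 1. In replicate 2 the peak covered chromosome 4 from 9448679 to 9449590 (TAIR10) with a fold of 5.37 and 506 tags, and in replicate 3 from 9448454 to 9449387 with 5.88 and 447 tags. The 2 summits were 66 bp apart, at 9449044 and 9449110, which is 70 and 4 bp outside the gene's lower end. By score they stood at the 85.9th and 77.8th percentile of replicates 2 and 3. Peaks covered 0% of the extended gene in replicate 1, 24.1% in replicate 2 and 24.6% in replicate 3. ATHB2 had the highest fold of the 8 genes in replicate 3.

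HB4, which acts with HAT3 in leaf polarity and in the embryo, had the broadest occupancy in replicate 2 and none within the window in replicate 1. Peaks covered 86.7% and 79.0% of its window in replicates 2 and 3, which is the 99.5th and 98.6th percentile among all coding genes. In replicate 2 a peak of 2218 bp covered chromosome 2 from 18516795 to 18519012, with a fold of 6.33, the highest of the 36, and a score at the 92.9th percentile. In replicate 3 the same place held a peak of lower fold, from 18517189 to 18518087, with a fold of 3.0 and a score at the 31.7th percentile of its list. The summits of these 2 peaks were 33 bp apart, at 18517509 and 18517542. A further peak lay inside the gene in replicate 3, with a fold of 4.28. At the higher end, peaks had folds of 5.55 and 3.58 in replicates 2 and 3, with summits 184 bp apart. Another replicate 2 peak, with a fold of 3.2, lay on the neighbouring gene ARABIDILLO-1 and reached the window of HB4 only at its edge.

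HAT1, a member linked to brassinosteroid signalling, had peaks at like places in all 3 replicates. Below its lower end, peaks of 503, 407 and 456 bp had folds of 5.04, 4.38 and 4.97 in replicates 1, 2 and 3. Their summits, at 9738632, 9738727 and 9738650 on chromosome 4, fell within 95 bp of each other. All 3 lists covered the stretch from 9738488 to 9738894 there. A second stretch common to all 3, from 9740476 to 9740964, lay within the gene, with folds of 3.6, 4.61 and 4.71. Summits in the gene were 9 bp apart in replicates 1 and 2, and the replicate 3 summit lay up to 362 bp from them. Just beyond the higher end, replicates 1 and 3 had peaks with folds of 3.46 and 4.71 and summits 12 bp apart, and replicate 2 had none. The replicate 1 peak there was among the weakest of its list, at the 3.99th percentile by score. Coverage of the window was 48.4%, 27.6% and 45.3% in replicates 1, 2 and 3, and 23.3% was common to all 3.

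HAT2, the close relative of HAT1 and known as an early auxin-induced gene, had 1 stretch common to all 3 replicates. It covered chromosome 5 from 19218283 to 19219595 and began 276 bp beyond the gene's higher end. The peaks over it had folds of 5.94, 3.84 and 3.81 in replicates 1, 2 and 3, the first of these the highest fold of the 8 genes in replicate 1. Their scores stood at the 92.8th, 94.1st and 78.3rd percentile of the lists. The summits at 19219447 in replicate 1 and 19219414 in replicate 3 were 33 bp apart. They lay 1440 and 1407 bp from the gene and so outside the window. This replicate 1 peak was the only one of its list in the HAT2 window. The replicate 2 summit, at 19217965, lay within the gene, 42 bp from its higher end. The annotation places the long noncoding RNA gene AT5G06985 under the peaks of each replicate, and AT5G06995 under that of replicate 1. HAT2 itself was the nearest coding gene. A peak wholly within the gene was found in replicate 3 alone, with a fold of 4.13. A replicate 2 peak with a fold of 3.37 overlapped the lower end and had its midpoint in the neighbour AT5G47360. Coverage of the HAT2 window was 19.4%, 65.5% and 39.8% in replicates 1, 2 and 3.

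HAT3 had the widest coverage of the 8 genes in replicates 1 and 3, at 71.5% and 89.4% of its window, the 98.7th and 99.5th percentile of coding genes. In replicate 2 it was 34.6%, at the 74.6th percentile. Beyond the higher end, a stretch of 630 bp on chromosome 3, from 22322895 to 22323524, was common to all 3 replicates, under peaks with folds of 5.06, 3.65 and 3.72. The summits of these peaks spread over 1148 bp, so the replicates shared an area and not a point. At the other side, the stretch from 22319063 to 22319678 was common to all 3, with folds of 4.11, 3.37 and 4.81 and summits within 34 bp of each other. This sharper site lay 902 bp from HAT3, and its midpoint was in the neighbouring gene AT3G60380, so that HAT3 was the more distant gene. With their summits inside HAT3, replicates 1 and 3 had peaks with folds of 2.98 and 4.88, and replicate 2 had none. These summits were 696 bp apart, and the replicate 1 fold was close to the lowest of its list, 2.95.

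HAT22, which has been linked to abscisic acid and growth arrest, had 4 peaks in replicate 2 and 1 in replicate 3. At its lower end the 2 lists shared 567 bp of chromosome 4, from 17767589 to 17768155, where their folds were 4.94 and 4.71 and their summits 57 bp apart. The replicate 2 peak there was at the 91.8th percentile of its list by score and also covered the noncoding gene AT4G09665. The replicate 3 peak was at the 13.4th percentile and had a false discovery rate of 1.08%. Coverage was 0%, 63.0% and 15.6% of the window in replicates 1, 2 and 3.

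HAT9 and HAT14, about whose function less is known, had 1 peak each, both in replicate 2. That of HAT9, on chromosome 2 from 9702613 to 9704053, had a fold of 4.93 and a score at the 85.9th percentile, and it ended 579 bp from the gene, with its summit 1733 bp away and so outside the window. That of HAT14, on chromosome 5 from 2068692 to 2069475, lay within the gene with a fold of 4.45 and a score at the 58.9th percentile. Neither gene had a peak of replicate 1 or 3 in its window.

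**Figure D2:**
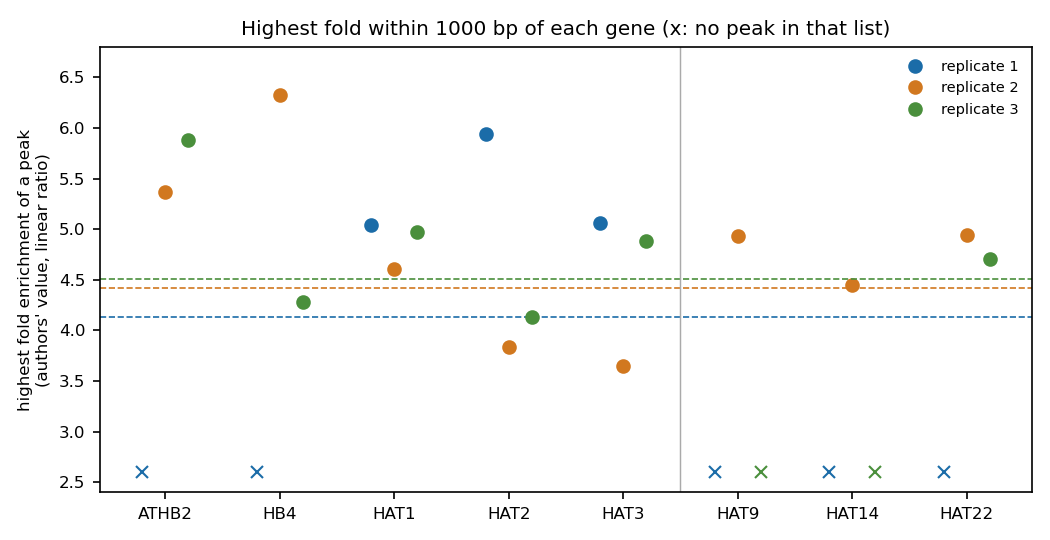
Highest authors' fold enrichment (linear ratio) of any peak in the window of each HD-Zip II gene, for replicates 1, 2 and 3. A cross marks a list without a peak, dashed lines are the medians over all coding genes with a peak in that list, and the vertical line parts the 5 genes known for induction by shade from the other 3. Values run from 3.65 to 6.33, and the order of the genes differs between replicates.

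The highest folds of the genes did not keep one order over the replicates. In replicate 1 the 3 genes with a peak had highest folds of 5.04 (HAT1), 5.06 (HAT3) and 5.94 (HAT2). In replicate 2 the 8 values ran from 3.65 (HAT3) to 6.33 (HB4), and HAT2 was the second lowest with 3.84. In replicate 3 the 6 values ran from 4.13 (HAT2) to 5.88 (ATHB2). HAT2 was thus the highest of those present in replicate 1 and the lowest in replicate 3. Medians of the highest fold were 5.06, 4.77 and 4.79 for the HD-Zip II genes with a peak in replicates 1, 2 and 3. Over all coding genes with a peak they were 4.13, 4.42 and 4.51. In replicate 1 HAT2 was past the 90th percentile of such genes, at 5.72, and in replicate 2 only HB4 was past it, at 6.23. In replicate 3 the 90th percentile was 6.11, and none of the 6 was above it.

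**Figure D3:**
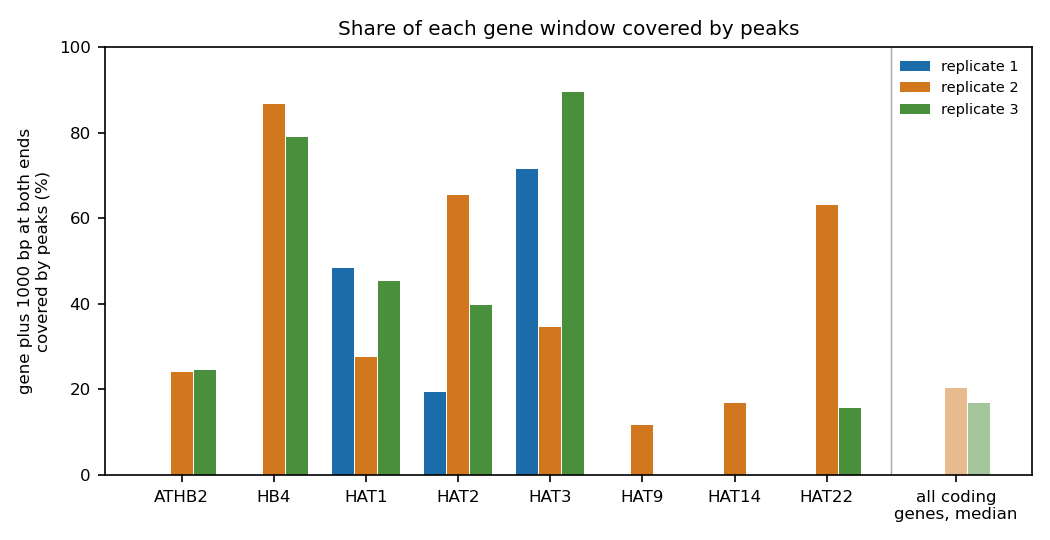
Share of each HD-Zip II gene, extended by 1000 bp at both ends, that peaks of replicates 1, 2 and 3 covered (bars, in percent), beside the median over all coding genes in pale bars. HB4 is at 86.7% and 79.0% in replicates 2 and 3 and at 0% in replicate 1. HAT3 is at 71.5%, 34.6% and 89.4% in replicates 1, 2 and 3. HAT9 and HAT14 stay at 11.8% and 16.9% in replicate 2 and at 0% in the others.

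Coverage of the window gives each gene a value in each replicate, and it is 0% by construction where no peak was called. The median over the 8 genes was 0%, 31.1% and 32.2% of the window in replicates 1, 2 and 3, against 0%, 20.4% and 16.8% over all coding genes. Stretches common to all 3 replicates covered 23.3% of the HAT1 window, 19.4% of the HAT2 window and 17.9% of the HAT3 window, and 0% of the other 5. A common stretch lay in the windows of 28.5% of all coding genes.

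The limit of 1000 bp decided the result for ATHB2 and HB4. The nearest stretch common to all 3 replicates at ATHB2, on chromosome 4 from 9447072 to 9447672, lay 1442 bp from the gene, with folds of 4.45, 4.28 and 6.95 in replicates 1, 2 and 3. ATHB2 was the nearest coding gene to it, and also to another such stretch 2839 bp away, with folds of 5.95, 5.07 and 6.66. At HB4 a common stretch from 18521219 to 18521810 lay 1488 bp from the gene, with 7.1, 5.55 and 6.8. HB4 was the nearest coding gene here too. The replicate 2 value is that of the broad peak at the higher end described above. Its summit, at 18520222, lay outside this stretch, whereas those of replicates 1 and 3 were at 18521606 and 18521572. HAT1 had a further common stretch 1191 bp below its lower end, from 9737923 to 9738327, with 4.96, 6.95 and 4.52. For HAT22 a replicate 3 peak with a fold of 5.96 lay 1394 bp away, with its summit at 17771482 on chromosome 4. A replicate 2 peak at the same place, with a fold of 4.71 and its summit at 17771473, lay 774 bp from HAT22. That peak was thus within the window. For HAT14 peaks with folds of 3.72 and 3.46 lay 1317 and 1478 bp away in replicates 2 and 3, with their midpoints in the neighbour AT5G06700. The replicate 3 peak there was among the weakest of its list, at percentile 0.702 by score. With an extension of 2000 bp, peaks in all 3 replicates were found for ATHB2, HB4, HAT1, HAT2 and HAT3, which is 5 of 8, against 43.6% of all coding genes. HAT9, HAT14 and HAT22 still had none in replicate 1 with 2000 bp, where all coding genes were at 48.4%. Farther out, HAT22 was the nearest coding gene to peaks of replicates 1 and 3. These lay 2912 and 2910 bp away, with folds of 5.4 and 4.74. For HAT9, peaks of replicates 1 and 2 lay 2318 and 2355 bp away, with 3.23 and 3.99, and AT2G22795 was nearer. For HAT14, peaks of replicates 2 and 3 lay 2844 and 2811 bp away, with 3.62 and 3.97. HAT14 was the nearest coding gene to both.

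None of the 8 genes had a region of the authors' series list in its window, against 14.9% of all protein-coding genes. This list holds 3419 regions, each with a peak height of at least 40 in 3 samples whose numbers were not matched to the replicates. Regions lay just beyond the limit for 2 genes. That near HAT1, common to the 3 samples from 9737981 to 9738330 on chromosome 4, was at least 1128 bp away and had heights of 123, 135 and 211. That near HAT2, from 19219241 to 19219600 on chromosome 5, was at least 1184 bp away and had heights of 112, 160 and 213. HAT1 and HAT2 were the coding genes nearest to them. Both regions overlapped a stretch common to all 3 replicates that is described above, for HAT1 that 1191 bp below its lower end. The median height over the whole list was 163. The nearest region was at least 2814 bp away for ATHB2, with heights of 162, 175 and 196, and 3320 bp for HB4 and 4355 bp for HAT22. It was at least 38999, 25984 and 26935 bp away for HAT3, HAT9 and HAT14. The ATHB2 region also overlapped a stretch common to all 3 replicates, that 2839 bp from the gene.

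**Figure D4:**
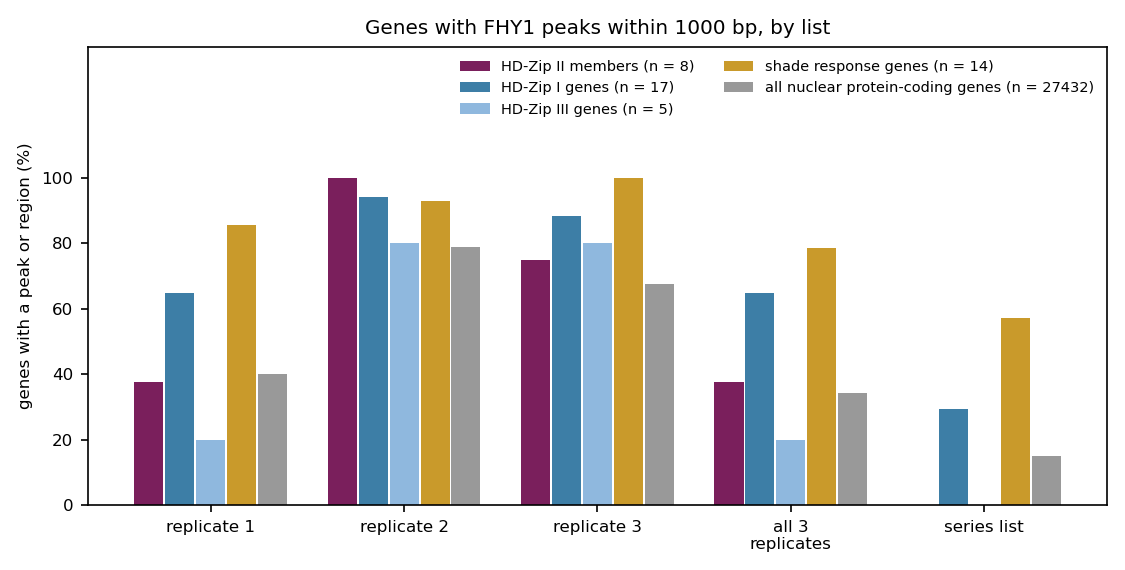
Share of genes (percent) with a peak within 1000 bp in each replicate, in all 3 replicates or with a region of the series list, for the 8 HD-Zip II genes, HD-Zip I, HD-Zip III and shade response genes, and all nuclear protein-coding genes. HD-Zip II genes are at 37.5% for all 3 replicates and at 0% for the series list, where all coding genes are at 34.1% and 14.9%.

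Related genes gave the frame for these counts. The remaining HD-Zip II genes ATHB17 and ATHB18 resembled HAT22 and HAT9 in their counts, with peaks in replicates 2 and 3 (folds of 4.42 and 3.59) and in replicate 2 alone (4.63). Of the 5 HD-Zip III genes, which set the upper side of leaves, only PHB had peaks in all 3 replicates, with highest folds of 4.2, 5.25 and 5.05. Of the 17 HD-Zip I genes, many of them responsive to water supply, 11 had peaks in all 3 replicates (64.7%) and 5 had a region of the series list (29.4%). The 11 were ATHB1, ATHB3, ATHB5, ATHB6, ATHB7, ATHB12, ATHB16, ATHB23, ATHB40, ATHB53 and ATHB54. Among them ATHB5 had highest folds of 8.45, 8.24 and 5.85 and ATHB16 had 5.01, 7.11 and 7.52. ATHB5 was the highest of the 11 in replicates 1 and 2, and ATHB16 in replicate 3. Others were lower, and ATHB7 had 3.17, 4.05 and 4.15. The maxima over the HD-Zip II genes were 5.94, 6.33 and 5.88 in the same replicates. Of 14 other genes of the shade response, 11 had peaks in all 3 replicates (78.6%) and 8 had a region of the series list (57.1%). They included PIL1, a bHLH gene used as a shade marker, with highest folds of 8.35, 5.86 and 7.25, and CKX5, for a cytokinin oxidase, with 8.49, 6.58 and 6.65. PIF5, a factor that binds phytochromes, had 6.42, 4.97 and 5.55, and the auxin synthesis gene YUC8 had 4.69, 7.31 and 5.18. HFR1, PAR2, IAA19, IAA29, YUC9, PIF4 and PIF7 were the others. PAR1, XTH15 and TAA1 lacked a peak in 1 replicate each. The shares of these small lists were not tested against that of the HD-Zip II genes.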

How the data were processed

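The submitters' processing notes name Bowtie and the TAIR10 build. For the peak caller and its settings, nothing is given in the sources used here. The replicate lists have no header, and their columns were read from layout and values. Each deposited list gives a whole-number tag count per peak, a score, a fold enrichment (a ratio) and a false discovery rate in percent, all the authors' own. For the series list the authors deposited heights of peaks, a signal whose scaling is not stated. Folds and scores served for ranks within 1 list and for description. Samples were grouped by their titles.

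Gene spans, symbols and neighbours came from RefSeq, assembly TAIR10.1. All 8 genes and all genes of the other lists matched by locus code. None of its coordinates is given, and distances rest on it. As a check, 44.8% to 50.3% of peak midpoints lay in coding genes, and 62.0% to 65.7% after shifts of 2000 bp either way. Overlap code was tested on simulated peaks with known answers. No strand or sequence was used, so the planned promoter motifs and strand-signed positions were not run. Background shares use the same rule over 27432 genes. The genes, the lists and the rules were chosen with earlier results of these data known. All 8 genes are named, and genes of the other lists were named mainly where peaks lay in every replicate. Python 3.11.15, pandas 2.3.3 and numpy 2.4.6 were used.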

Additional observations from a re-analysis of the deposited data

How the results depend on the processing

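The count of 3 genes with peaks in all 3 replicates became 5 with an extension of 2000 bp (43.6% of all coding genes), which added ATHB2 and HB4. It became 1, HAT2, when each list was cut to its 8423 strongest peaks (17.9%). Without 1 replicate it was 3 to 6, the 6 being without replicate 1 and including ATHB2, HB4 and HAT22 (61.0%). The count of genes with a common stretch likewise became 5 with 2000 bp (35.4% of all coding genes), 1 with equal list sizes (14.6%), 1 without any extension (20.4%), and 3 to 6 without 1 replicate (53.8% for the 6, without replicate 1). Replicate 1 had 5 genes in place of 3 with 2000 bp (48.4% of all coding genes), and replicate 2 had 5 in place of 8 with equal list sizes (37.5%). The series list reached 2 genes, HAT1 and HAT2, with 2000 bp (19.3% of all coding genes). The median highest fold over genes and replicates was 4.93, and 4.71 with 500 bp. Of the highest folds per gene and replicate, 4 moved by more than the SD between replicates with 2000 bp and 13 did not. With 500 bp, 2 moved and 14 did not, and HAT9 had no peak left. With the peak of highest score, 1 moved and 16 did not. HAT9 and HAT14 had a value in 1 replicate only, which was unchanged wherever a peak remained. The wider window adds distant peaks and the equal lists hold fewer peaks by construction. The other alternatives (500 bp, at least 50% of the peak in the window, a false discovery rate of at most 1%, the nearest gene, the summit, the midpoint) kept the counts of genes within 1.5 times. HAT2, HAT9 and HAT22 depended on the rule, however. With at least 50% of the peak in the window, with the summit in it, or without any extension, HAT2 had no replicate 1 peak. Under these rules only HAT1 and HAT3 kept peaks in all 3 replicates. HAT9 lost its only peak with 500 bp, with at least 50% of the peak in the window, or without any extension. Not all 8 genes then had a peak in replicate 2. HAT22 lost its replicate 3 peak with a false discovery rate of at most 1%. No paired analysis was possible because only the ChIP had replicates with lists. No library depth is known, so a missing peak is not an absence of association.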
